A study of Mus musculus with 2 samples.

Results

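Matricellular proteins are secreted into the extracellular matrix without forming its load-bearing fibres; they bind fibrillar proteins, growth factors and cell-surface receptors and change how cells adhere, migrate and respond to signals. The 10 genes described here encode periostin (Postn), tenascin-C (Tnc), the trimeric thrombospondins (Thbs1 and Thbs2), SPARC (Sparc), osteopontin (Spp1) and 4 members of the CCN family, which the array lists under their older symbols Ctgf (now Ccn2), Cyr61 (Ccn1), Nov (Ccn3) and Wisp1 (Ccn4). They were chosen by gene name among the non-control probes of the array, with earlier results of these data known. The array held 13 probes for these 10 genes out of 39429 probes in all. Probes entered the tests if at least 1 genotype exceeded background clearly on each array. By that filter 12 of the 13 probes and all 10 genes were kept, out of 26471 kept probes for 21097 genes, and each of the 12 exceeded it in all 4 extracts.

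Ureters were dissected at E13.5 from male NMRI mouse embryos. Tbx2-GOF embryos (Tbx18(cre/+);Hprt(Tbx2/Y)) carried cre at 1 Tbx18 allele and, on the X chromosome, an Hprt allele with an inserted Tbx2, and control embryos (Tbx18(+/+);Hprt(Tbx2/Y)) carried the same Hprt allele with normal Tbx18 alleles. TBX2, a T-box transcription factor that mostly represses transcription, is thus meant to be gained where Tbx18 drives cre, which in the ureter is the mesenchyme and its descendants; the Tbx2-GOF embryos also have 1 Tbx18 allele fewer, which cannot be told apart from the gain of Tbx2. Each of 2 two-colour arrays held 1 Tbx2-GOF and 1 control extract, with the Tbx2-GOF extract in red on array 1 and in green on array 2. The labels name the arrays as replicates without saying whether the extracts came from separate embryos or pools, so the p-values below rest on variation between 2 arrays that may be purely technical.

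Signals cleared background at 66.7% (array 1) and 72.7% (array 2) of probes in Tbx2-GOF extracts, against 70.5% (array 1) and 66.4% (array 2) in control extracts, and no probe of the 10 genes was saturated. Among markers of the labelled tissue, 8 of 8 ureteric mesenchyme genes and 9 of 9 urothelial genes were kept, and 5 of 6 smooth muscle genes, all but Myocd. Over the whole array 21097 of 31870 genes were kept, as were all 6 liver, all 10 skeletal muscle and all 8 neural and Schwann markers. Being kept thus does not single out ureter tissue. The Tbx2 probe had log2 ratios of 0.04 and 0.56 on arrays 1 and 2 (mean 0.30, adjusted p = 0.711); the files do not tell whether the inserted Tbx2 includes its target. Ratios are given as log2 of Tbx2-GOF over control, with the mean ± SD of the 2 arrays (n = 2), and adjusted p-values are from limma over all 21097 genes, with a threshold of 0.05. Levels are log2 normalized intensities of single channels, which can be compared between extracts for 1 probe but not between probes.

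In connective tissue periostin is made mainly by fibroblasts and supports collagen assembly, and CCN proteins act as modulators of integrin and growth factor signalling; in many mouse tissues Ctgf and Cyr61 are transcribed in response to YAP and TEAD factors and to TGFB. The 5 genes whose levels in both Tbx2-GOF extracts lay below those in both control extracts were Postn and the 4 CCN genes, and the oligonucleotides that measured them are shown so that each value can be tied to its target. The first 30 of the 60 bases of each probe are written 5′ to 3′.

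Nov probe: aatgaaagatgttccgaatgtaaacttaga
Postn probe: ctgcagagttggtaattcagaaaactcaag
Wisp1 brighter probe: cattcctcatttttctcatgatctgtgtag
Wisp1 dimmer probe: ctaacgatatctttgctgacttggaatctt
Cyr61 probe: aagattagttgggccaagtgaaagccctgc
Ctgf probe: gtcaaatccctgttggtgaacaaatggcct

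On the mm9 build the Nov probe lies on chromosome 15 (54584204 to 54584263, plus strand) and the Wisp1 probes on the same chromosome (66754637 to 66754696 for the brighter and 66750958 to 66751017 for the dimmer). The Postn probe lies on chromosome 3 (54194840 to 54194899), as does the Cyr61 probe (145310187 to 145310246, minus strand), and the Ctgf probe lies on chromosome 10 (24318281 to 24318340). The scanner files assign these probes to the RefSeq transcripts of the 5 genes and do not say whether they lie in coding or untranslated sequence.

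Of the 10 genes, 2 fell in Tbx2-GOF ureters, Nov and Postn, 8 did not pass the test and 0 rose; over all genes tested 0.28% fell and 0.36% rose. At least 1.5-fold lower on both arrays were the same 2 genes, against 0.545% of all genes, and 0 of the 10 were that much higher, against 0.825%. Lower on both arrays, at any size, were 5 of the 10 against 25.1% of all genes, and 1 of the 10 was higher on both, Thbs1, by no more than 0.01 on either array, against 26.1% of all genes. The levels did not overlap between the genotypes for 5 of the 10, all of them lower in Tbx2-GOF, against 16.3% of all genes with that separation downward and 18.2% upward. The median ratio of the 10 genes was -0.24, with -0.19 on array 1 and -0.29 on array 2, beside 0.00 over all genes. Because the 10 genes were chosen with earlier results known, these counts and medians describe the list and do not test it.

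**Figure D1:**
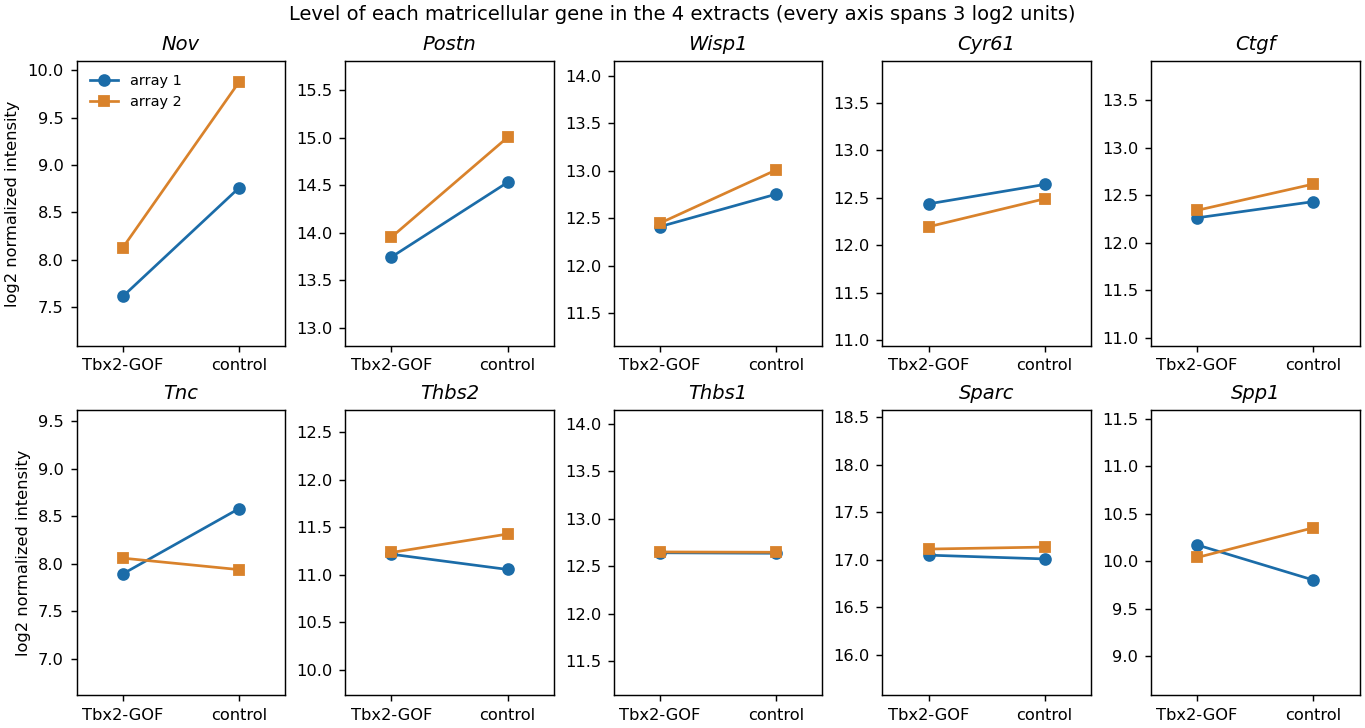
Log2 normalized intensity (y axis) of the probe used for each of the 10 genes in the Tbx2-GOF and control extracts of array 1 (circles) and array 2 (squares), with a line joining the 2 extracts of an array; every panel spans 3 log2 units. The lines climb toward control on both arrays for Nov, Postn, Wisp1, Cyr61 and Ctgf, and are flat for Thbs1 and Sparc. They cross for Tnc and Spp1 and diverge toward control for Thbs2.

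Nov, which encodes CCN3, a CCN protein known in mouse and human cells for restraining proliferation, changed most. Its level was 7.62 and 8.13 in the Tbx2-GOF extracts of arrays 1 and 2, against 8.76 and 9.87 in the control extracts. The genotypes did not overlap, and the control extract of array 2 was the highest of the 4. The log2 ratio was -1.14 on array 1 and -1.74 on array 2, with a mean of -1.44 ± 0.42 (2.72-fold lower, 95% interval -1.84 to -1.05, adjusted p = 0.0269). By mean ratio Nov stood at rank 26 from the lowest of all genes. As scanned, before background correction, the Nov spot gave 227 and 252 in the Tbx2-GOF channel over local backgrounds of 89 and 25, and 368 and 1005 in the control channel over backgrounds of 26 and 84.5, so that it was a dim spot in the Tbx2-GOF channel, and its mean ratio was -1.67 with a normexp offset of 0, -1.47 with no background correction and -1.86 with the software's processed signals, where it did not pass (adjusted p = 0.0699).

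Postn encodes periostin, a fasciclin-domain protein that binds collagen, fibronectin and tenascin-C and signals through integrins. Its level was 13.74 and 13.95 in the Tbx2-GOF extracts, against 14.53 and 15.00 in the control extracts. Both Tbx2-GOF levels were below both control levels, and the spot was bright, scanned at 14609 and 14588 in the Tbx2-GOF channel and at 20386 and 38340 in the control channel. The log2 ratio was -0.79 and -1.05, with a mean of -0.92 ± 0.19 (1.89-fold lower, 95% interval -1.24 to -0.60, adjusted p = 0.0449), at rank 96 from the lowest. That adjusted p lay close to the threshold and passed it in 6 of 12 alternative settings, while the mean ratio stayed between -0.97 and -0.91. Settings that changed only the filter, the averaging of probes or the test could not alter that ratio, since Postn has 1 probe. Fewer cells that express a gene and less RNA per cell cannot be told apart in these extracts.

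**Figure D2:**
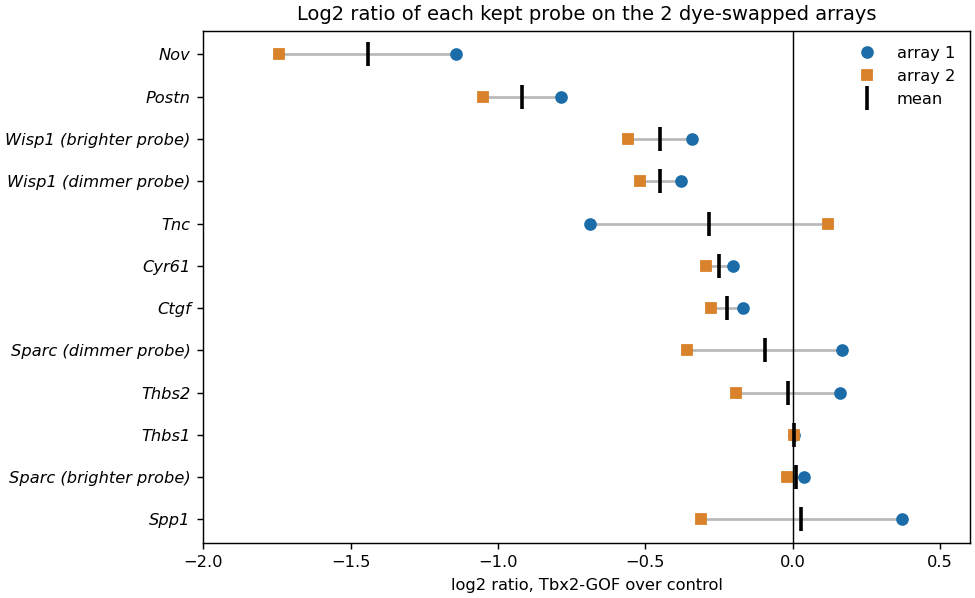
Log2 ratio of Tbx2-GOF over control (x axis) for each of the 12 kept probes on array 1 (circles) and array 2 (squares), with the mean as a vertical bar. Nov and Postn stand farthest to the left on both arrays, and the 2 Wisp1 probes give the same mean of -0.45. Tnc, Thbs2, Spp1 and both Sparc probes lie on opposite sides of 0 on the 2 arrays, the brighter Sparc probe at 0.04 and -0.02.

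The other CCN genes were lower by less and did not pass the test over all genes. Wisp1 encodes CCN4, known in mouse mammary epithelial cells as a target of WNT signalling. Its level was 12.41 and 12.45 in the Tbx2-GOF extracts, against 12.75 and 13.01 in the control extracts, without overlap. The log2 ratio was -0.34 and -0.56. Its mean was -0.45 ± 0.15 (1.37-fold lower, 95% interval -0.77 to -0.14, adjusted p = 0.254). The unadjusted limma p of Wisp1 was 0.0113. Of the 21097 genes tested, 1970 had an unadjusted p below 0.05, including 3 of the chosen matricellular genes. That value thus does not single out Wisp1. The second Wisp1 probe, which is a separate oligonucleotide on the same RNA and not a replicate, had ratios of -0.38 and -0.52 and the same mean of -0.45.

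Cyr61, which encodes CCN1, an adhesive ligand of integrins that serum induces as an immediate early gene, had levels of 12.44 and 12.19 in the Tbx2-GOF extracts, against 12.64 and 12.49 in the control extracts. The ratio was -0.20 and -0.29, with a mean of -0.25 ± 0.06 (95% interval -0.55 to 0.05, adjusted p = 0.687). Ctgf, which encodes CCN2, a profibrotic effector of TGFB, had levels of 12.26 and 12.34 in the Tbx2-GOF extracts, against 12.43 and 12.62 in the control extracts, and a mean ratio of -0.22 ± 0.07 (95% interval -0.53 to 0.08, adjusted p = 0.768). For both genes the Tbx2-GOF levels lay below the control levels while the interval of the difference included 0. Nov was lower than the mean ratio of the other CCN genes by a log2 difference of -0.90 on array 1 and -1.37 on array 2, a difference that was not tested.

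The 5 lower genes each had the more negative ratio on array 2, as did 55.7% of the 5295 genes that were lower on both arrays. All 4 CCN genes and Postn were lower on both arrays in each of 11 alternative settings. Settings that reused the same ratios, such as those changing only the filter or the test, or only rescaled an array, could not alter a sign. The remaining CCN genes of the array, Wisp2 and Wisp3, were not well above background in either genotype and have no ratio here.

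**Figure D3:**
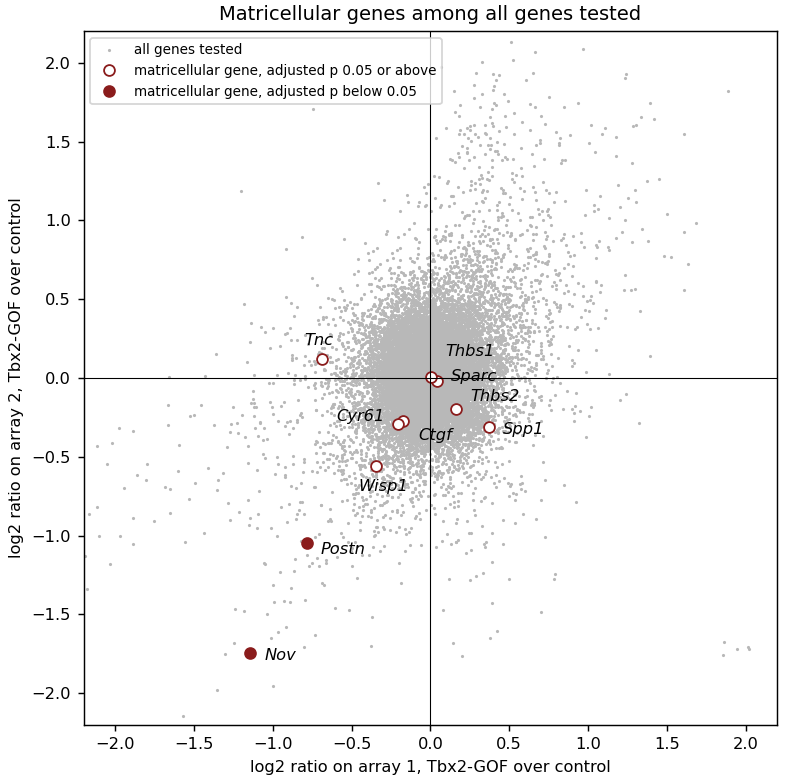
Log2 ratio of Tbx2-GOF over control on array 1 (x axis) and array 2 (y axis) for all genes tested (grey) and the 10 matricellular genes (circles, filled where the adjusted p was below 0.05). Nov and Postn are separated from the cloud at the lower left, Wisp1, Cyr61 and Ctgf lie at its lower left edge or within it, and the other genes lie near 0 or on opposite sides of it; 18 genes fall outside the axes.

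The thrombospondins did not change detectably. Thbs1, an activator of latent TGFB and an inhibitor of angiogenesis that binds CD36 and CD47, had levels of 12.64 and 12.65 in the Tbx2-GOF extracts, against 12.64 and 12.65 in the control extracts. Its ratio was 0.01 on array 1 and 0.00 on array 2 (95% interval of the mean -0.30 to 0.30, adjusted p = 0.9998). The measured ratios were thus no larger than 0.01, while the interval includes differences of up to 0.30 either way. Thbs2, a relative that also limits angiogenesis and shapes collagen fibrils, had levels of 11.21 and 11.23 in the Tbx2-GOF extracts, against 11.05 and 11.43 in the control extracts. The spread lay in the control extracts, and the ratio of 0.16 on array 1 and -0.19 on array 2 changed sign (mean -0.02 ± 0.25).

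Sparc encodes a collagen-binding glycoprotein of remodelling matrix. Its brighter probe had levels of 17.05 and 17.11 in the Tbx2-GOF extracts, against 17.01 and 17.13 in the control extracts, with a mean ratio of 0.01 ± 0.04 (95% interval -0.29 to 0.31). The dimmer Sparc probe had ratios of 0.17 and -0.36, so the 2 probes differed in how well the arrays matched, and neither passed the test. Both Sparc probes lie on chromosome 11 (mm9, 55208939 to 55208998 for the brighter, 55208003 to 55208061 for the dimmer).

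Spp1 encodes osteopontin, an integrin and CD44 ligand found in bone, in macrophages and in kidney epithelium. Its level was 10.17 and 10.04 in the Tbx2-GOF extracts, against 9.80 and 10.35 in the control extracts, and its ratios of 0.37 and -0.31 had opposite signs (mean 0.03 ± 0.48, 95% interval -0.39 to 0.45). Tnc encodes tenascin-C, a hexameric glycoprotein of embryonic mesenchyme and of wounds that periostin binds. The Tnc probe that was kept had levels of 7.89 and 8.06 in the Tbx2-GOF extracts, against 8.58 and 7.94 in the control extracts. Its ratios of -0.69 and 0.12 (mean -0.28 ± 0.57, 95% interval -0.74 to 0.18, adjusted p = 0.862) showed the largest SD of the 10 genes, and array 1 alone carried the lower mean. The other Tnc probe (chromosome 4, 63674248 to 63675011, a span longer than its 60 bases) was not well above background in either genotype on either array, so Tnc rests on 1 probe. The kept Tnc probe was itself dim, scanned at 274 and 233 in the Tbx2-GOF channel over local backgrounds of 92 and 25. In the control channel it gave 323 and 286 over backgrounds of 26 and 90.

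Of 22 other members of these protein families and close relatives 16 were kept, 2 rose, 0 fell and 14 did not pass; the median ratio was -0.08, and 6 were higher and 8 lower on both arrays. Those that rose were Spock2, which encodes a SPARC-related proteoglycan of the testican group, at 0.87 ± 0.15 (0.76 and 0.97 on the 2 arrays, adjusted p = 0.0471, chromosome 10, 59596162 to 59596221), and Ecm1, a secreted matrix glycoprotein, at 0.85 ± 0.01 (adjusted p = 0.0458, chromosome 3, 95538120 to 95538178). Spock2 passed in 5 and Ecm1 in 6 of 11 alternative settings. The other testican genes, Spock1 (0.67 and 1.18, adjusted p = 0.0663) and Spock3 (0.54 and 0.71, adjusted p = 0.115), were higher on both arrays without passing. Testicans are abundant in brain, and the medians of neural and Schwann markers were 0.59 (array 1) and 1.74 (array 2), with 2 of 8 risen (Fabp7 and Th); their part in the Spock values was not tested. Sparcl1 was at 0.43 and Smoc1 at -0.44, neither past the test. Tgfbi, the closest paralogue of Postn, named here after its value was seen, was at -0.48 and -0.23 (mean -0.36, adjusted p = 0.435). Comp, Tnr, Tnn, Wisp2, Wisp3 and Dmp1 were not well above background in either genotype.

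The receptors showed no called member. Of 18 genes, among them the integrin subunits that bind periostin, osteopontin and the CCN proteins, 0 rose and 0 fell, and the median was -0.02. Farthest from 0 with the same sign on both arrays were Itgb6, an epithelial integrin subunit, at -0.90 and -0.35 (adjusted p = 0.189), and Itga4, an integrin subunit that can bind osteopontin, at 0.60 and 0.49 (adjusted p = 0.154). Stab1 was at 0.25 and Cd47, the thrombospondin receptor, at 0.18. Among 17 matrix partners and processing enzymes 0 passed, with a median of -0.03. Col12a1 was at 0.42, Ccdc80 at 0.27, Lox at -0.31 and Mgp, the matrix Gla protein, at -0.37, all with adjusted p from 0.277 to 0.629.

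Genes that share known inducers with Ctgf and Cyr61 had no call either. Of 15 further YAP and TEAD target genes 0 passed and the median was 0.03; Ankrd1, a muscle ankyrin-repeat protein gene that YAP induces, was lowest at -0.92 and -0.62 (mean -0.77, adjusted p = 0.0728), while Nt5e was at -0.33, Dlc1 at 0.31 and Wwc1 at 0.27. Of 13 TGFB response genes and TGFB ligand genes 0 passed (median 0.15, with 0.18 on array 1 and -0.01 on array 2); Col4a1 was at 0.78 (adjusted p = 0.0584), Tgfb1 at 0.37 and Tgfb3 at -0.36. Of 14 immediate early genes 0 passed (median 0.13), with Fosb at -0.59, Junb at 0.31, Fos at 0.27 and Klf6 at -0.24. At this threshold 135 genes were called in either direction, 0.64% of those tested.

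**Figure D4:**
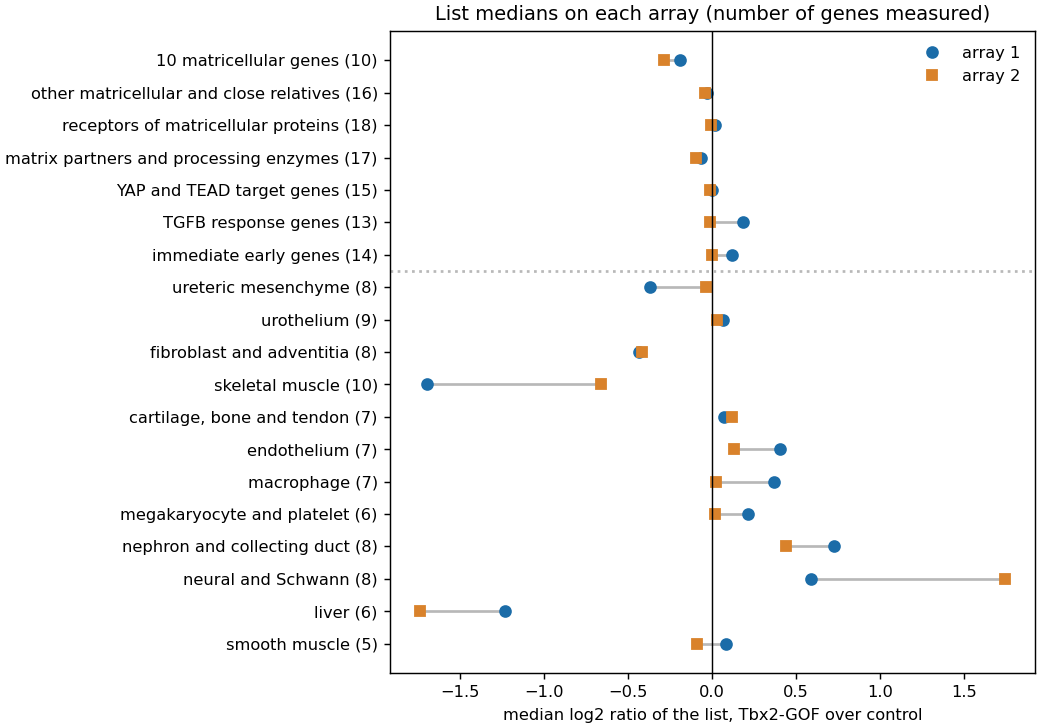
Median log2 ratio of Tbx2-GOF over control (x axis) for the 10 matricellular genes, 6 lists of related genes and 12 lists of cell type markers on array 1 (circles) and array 2 (squares); the number of genes measured is in brackets. The matricellular median lies below 0 on both arrays, the related lists lie closer to 0, with the TGFB list at 0.18 on array 1, and skeletal muscle and liver lie lowest.

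Some markers of fibroblasts, skeletal muscle and liver were lower on the same arrays. Whether these tissues express the 10 genes was not measured. Of 8 fibroblast and adventitia markers 6 were lower on both arrays and 1 fell, Lum (mean -1.16, adjusted p = 0.0278); the list had medians of -0.43 (array 1) and -0.41 (array 2), and its summed normalized intensity was 592212 and 522904 in the Tbx2-GOF extracts, against 628575 and 728816 in the control extracts. Of 10 skeletal muscle markers 9 were lower on both arrays and 3 fell (Acta1, Myh8 and Chrna1), with medians of -1.69 (array 1) and -0.66 (array 2) and a summed intensity of 32921 and 63215 in Tbx2-GOF, against 79159 and 84213 in control. Of 6 liver markers 4 fell, with medians of -1.23 and -1.74 and a summed intensity of 2146 and 2281 in Tbx2-GOF, against 4830 and 5925 in control. Levels are not comparable between probes, so each sum is weighted toward the bright probes of its list and does not measure a list-wide change.

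Ureteric mesenchyme markers had medians of -0.37 and -0.03 with 0 of 8 called, and smooth muscle markers 0.08 and -0.09 with 0 of 5 called. Of 9 urothelial markers 1 fell and 0 rose, with medians of 0.06 and 0.03. Of 8 nephron and collecting duct markers 2 rose (Six2 and Pax8), with medians of 0.72 and 0.44. The macrophage list, relevant to Spp1, had medians of 0.37 and 0.02 with 0 of 7 called, and the megakaryocyte and platelet list, relevant to Thbs1, had 0.21 and 0.02 with 0 of 6 called. Endothelial markers had medians of 0.40 and 0.13 with 0 of 7 called. Of the 10 markers of cartilage, bone and tendon 7 were kept and 0 called, with medians of 0.07 and 0.12; Matn1, Runx2 and Bglap were not well above background, and Tnmd was at -2.29 on array 1 and 0.12 on array 2. The part of any of these tissues in the values of the 10 genes was not tested.

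The upstream sequences of Postn and Cyr61, the genes among the 5 lower ones that the RefSeq promoter table (GRCm38.p6) holds, are shown because TBX2 binds DNA and TEAD factors are known regulators of Cyr61. The table held 6 of the 10 genes. The 250 bases before the start site were searched on both strands for the T-box core GGTGTGA, the TEAD motif GGAATG and the TATA element TATAAA, which do not overlap each other here; capitals mark matches.

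Postn, chromosome 3, plus strand: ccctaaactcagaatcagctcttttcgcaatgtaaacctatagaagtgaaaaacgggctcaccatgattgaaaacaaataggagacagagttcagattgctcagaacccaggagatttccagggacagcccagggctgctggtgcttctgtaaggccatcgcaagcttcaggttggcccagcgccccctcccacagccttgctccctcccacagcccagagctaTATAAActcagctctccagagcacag
Cyr61, chromosome 3, minus strand: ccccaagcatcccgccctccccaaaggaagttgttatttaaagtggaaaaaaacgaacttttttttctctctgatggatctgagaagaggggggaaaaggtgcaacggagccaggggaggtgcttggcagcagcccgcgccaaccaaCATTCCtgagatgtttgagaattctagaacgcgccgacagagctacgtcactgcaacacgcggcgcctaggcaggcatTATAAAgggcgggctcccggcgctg

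The Postn window spans chr3:54360857-54361106 and belongs to the more downstream of 2 start sites in the table, and the Cyr61 window spans chr3:145649986-145650235. Postn holds TATAAA from position -26 in this window, and the window of its other start site (chr3:54359017-54359266) holds none of the 3 motifs. Cyr61 holds TATAAA from -25 and CATTCC, the reverse complement of the TEAD motif, from -103. The T-box core was in none of the windows of the 6 genes, the second start sites included, and in 3.33% of all 32851 windows of the same length; the TEAD motif was in 12.6% and the TATA element in 12.4% of them. A match or its absence describes these letters in this window only.

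The number of calls rested on the processing. Nov and Postn were both past the threshold in 6 of 12 alternative settings, Nov without Postn with a normexp offset of 0 and with each probe tested by itself, and 0 of the 10 genes passed with the processed signals of the software, with median centring, with the separate-channel model and with the deposited series value table. Single-array values of the mean ratio ranged from -1.74 to -1.14 for Nov and from -1.05 to -0.79 for Postn.

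**Figure D5:**
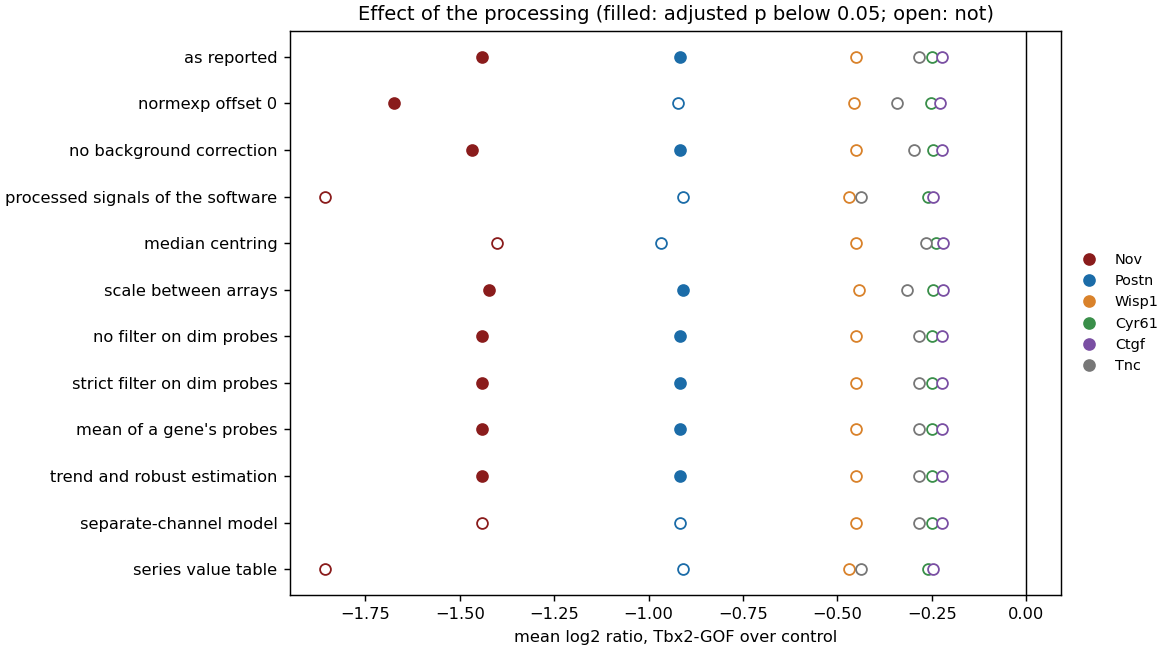
Mean log2 ratio of Tbx2-GOF over control (x axis) of 6 of the 10 genes in each processing setting (rows), filled where the adjusted p was below 0.05 and open where it was not. Nov ranges from -1.86 to -1.40, Postn from -0.97 to -0.91 and Wisp1 from -0.47 to -0.44; only Nov and Postn have filled points.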

How the data were processed

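Arrays were scanned and quantified by the authors with Feature Extraction (Agilent, 10.7.3.1), as the submitters' processing notes list. Per the file headers, mean spot and local background signals are raw intensity values; the processed intensity had background subtraction, detrending and dye normalization applied. A log10 ratio, red divided by green, stands beside them per the file headers. The deposited series value table is a signed fold score of unstated scale, centring and direction; for 99.6% of probes above background in both channels, on each array, the log10 of that fold (a negative entry read as its reciprocal) lay within 0.01 of this ratio, turned to Tbx2-GOF over control.

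From the deposited raw intensity, log2 ratios were made in limma 3.58.1 (R 4.3.3): normexp (offset 50), loess per array (span 0.3; control and outlier spots had weight 0), and turning by dye. The brightest kept probe of each gene was tested by lmFit and eBayes (two-sided; 1 residual plus 6.36 prior degrees of freedom), adjusted by Benjamini-Hochberg over 21097 genes. Aquantile gave single-channel levels. Each dye orientation was on only 1 array, so array and orientation cannot be told apart; 2 arrays limit precision. RefSeq (GRCm38.p6) accessions matched 67.0% of probes. Named are the 10 genes and, per related list, called genes plus up to 4 others with the largest same-sign ratios. Genes and lists were chosen with earlier results of these data known. The alternatives are in the closing section.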

Additional observations from a re-analysis of the deposited data

How the results depend on the processing

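The counts depended on the processing, and limits of 2 arrays and of dim Nov and Tnc spots apply throughout. Of the 10 genes, 2 passed as reported; 1 did with offset 0 and with each probe tested by itself (Nov), and 0 did with median centring, the software's processed signals, the separate-channel model and the authors' value table. Over all genes 135 passed (76 higher and 59 lower), against 0 (0 and 0) with median centring, the software's processed signals and the authors' value table, 4 (2 and 2) with the separate-channel model, 313 (197 and 116) with scaling between arrays, 276 (167 and 109) with no filter on dim probes and 211 (124 higher) with the mean of a gene's probes; the cause was not tested. In the settings without a call for Postn its adjusted p was 0.0614 with offset 0, 0.0530 with each probe by itself, 0.194 with processed signals, 0.501 with median centring, 0.204 with separate channels and 0.180 with the authors' value table. The median of the 10 genes ranged from -0.29 to -0.19 with 1 array left out. Values near 0 changed sign: Thbs1 was at -0.0049 both in the authors' value table and from the processed signals, Thbs2 at 0.0036 with median centring, and Sparc at -0.063 with median centring, at -0.043 with the mean of its probes and at -0.10 by its dimmer probe. Of 275 values of the 25 other named genes in these settings 0 changed sign, 11 lost a call and 11 gained one. All the lost calls were of Spock2 and Ecm1, the only ones of these genes with a call to lose, which passed in 5 and 6 of 11 settings. The count of genes lower on both arrays, added after the values were seen, was 5 in all 11 settings. Settings that reused or only rescaled the ratios could not change a sign, neither in this count nor among the 275 values. No paired analysis was possible beyond the ratios themselves, which already pair the genotypes within each array.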
